A study of Mus musculus with 32 samples.

Results

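Inhibitory receptors are the brakes of the T cell. They bind ligands on neighbouring cells and recruit phosphatases and adaptors that weaken signalling from the antigen receptor and from CD28. Antigen receptor signalling itself induces many of them. Tox is a nuclear DNA-binding protein best known from chronically stimulated CD8 T cells, where it helps to sustain inhibitory receptor expression. The genes described here are 7 receptor or receptor-ligand genes, Pdcd1, Lag3, Tigit, Btla, Cd160, Havcr2 and Cd200, together with Tox. They were chosen with earlier results of these data known and taken by symbol from the 24302 genes in each count table. All 8 were found in every library, all 8 passed the filter on low counts that left 12332 genes for testing, and the lowest count of any of them in any library was 11.

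The libraries were poly(A) RNA sequencing of mouse CD4+ T cells isolated from C57BL/6J spleen and lymph nodes (inguinal and axillary). There were 8 groups of 4 libraries. They were KO-labelled (genotype label Nur77KO) and WT cells that had been stimulated with antibodies to CD3 and CD28 for 12 h in the presence of XCT790 at 10 µg/ml, stimulated in the presence of CompA (Compound A) at 10 µg/ml, stimulated without inhibitor, or left unstimulated. Nur77 is the nuclear receptor encoded by Nr4a1, an early gene of antigen receptor signalling. XCT790 is known as an inverse agonist of the oestrogen-related receptor alpha, and CompA is known here only by that name. The sources used here do not give the knockout allele, the age or sex of the mice, or how many mice stand behind 4 libraries, so the p-values measure the spread between these libraries, which may be technical.

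The libraries held 16020288 to 23687940 counts assigned to genes. Levels below are CPM, the count scaled to library size with edgeR's TMM factors, and a call means an edgeR adjusted p under 0.05. The targeted gene was lower in no KO-labelled group. Nr4a1 averaged 332 ± 128 CPM in KO-labelled and 166 ± 32.7 CPM in WT stimulated cells (SD, n = 4 each; log2 difference 1.00, edgeR adjusted p = 0.0015), and its log2 difference in the other 3 conditions lay between 0.39 and 0.67 without a call. Counts over the whole gene cannot show whether a deletion or insertion spares the transcript, so the genotype label was not checked by them, and the groups are called KO-labelled throughout. The T cell genes Cd4, Cd3d, Cd3e, Cd3g, Cd28 and Lck averaged above 200 CPM in every group. The sum of 15 myeloid and dendritic cell markers averaged 1170 CPM in KO-labelled and 2332 CPM in WT unstimulated cells, and 14.9 CPM in KO-labelled and 661 CPM in WT stimulated cells. It averaged between 9.79 and 20.02 CPM in the 4 inhibitor groups. Every WT stimulated library therefore stood apart from the other stimulated groups. From 93 genes that were nearly lost in the other stimulated groups, their summed level in WT stimulated replicates 1 to 4 was 0.161, 0.465, 0.220 and 0.217 of that in WT unstimulated cells. The share of those 93 genes was assumed to hold for every gene, T cell genes included, which was not tested. A second fit had that share of the unstimulated profile subtracted from the WT stimulated libraries. By itself, that step moves WT stimulated levels away from WT unstimulated ones. A larger stimulation fold under it is therefore no added support. For the 8 genes, the value of the second fit stands beside results that rest on those libraries. It is given where a call was lost or gained or a fold moved by over 1.5 times, and for the main responses. In that fit the Nr4a1 difference between KO-labelled and WT stimulated cells was 0.68 on the log2 scale, not called (edgeR adjusted p = 0.0835). In bulk RNA, fewer cells of a type and less RNA per cell cannot be told apart.

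Per kilobase of exon, the receptors differed widely in level. Exon lengths are those of the GENCODE annotation, and the annotation used for the counting was not stated, so the counted lengths may differ. In WT stimulated cells Btla stood at 85.4, Cd200 at 72.6, Lag3 at 62.4, Pdcd1 at 55.5 and Tigit at 29.0 CPM per kilobase. Cd160 stood at 7.45, Tox at 6.74 and Havcr2 at 1.28 CPM per kilobase in the same cells. Havcr2 was the lowest of the 8 per kilobase in every group. The ratio between the highest and the lowest group mean was 12.1 for Lag3, 11.3 for Cd200, 6.79 for Havcr2 and 5.06 for Pdcd1, and it lay between 3.09 and 4.24 for Tox, Tigit, Btla and Cd160.

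**Figure D1:**
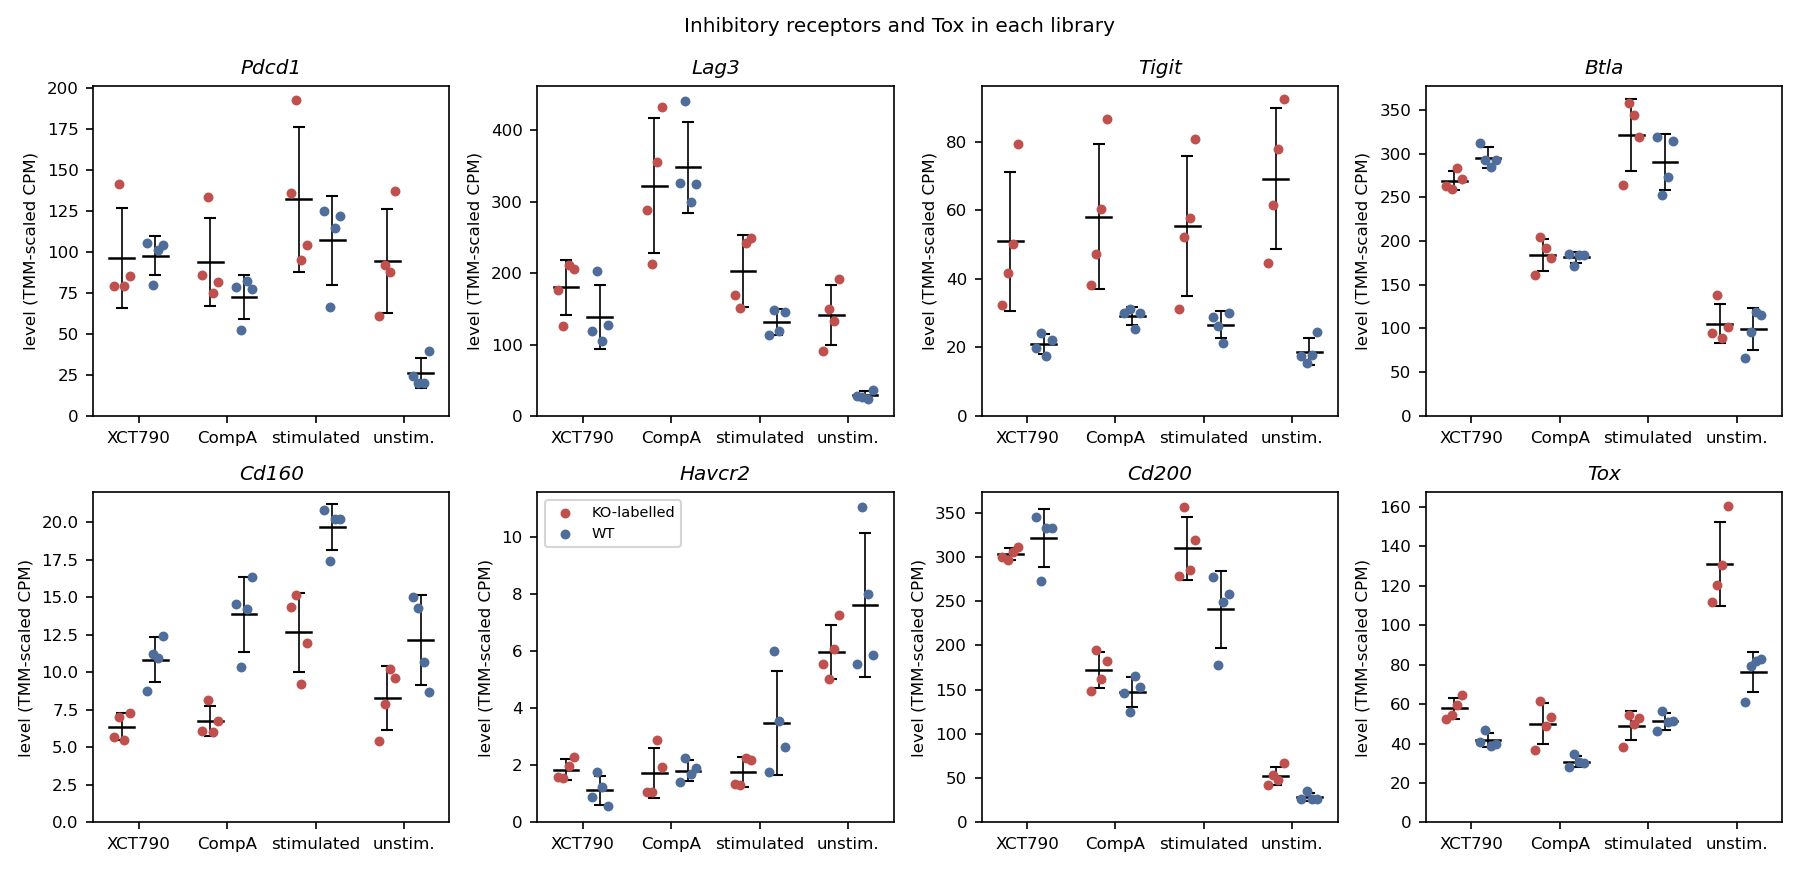
Level of each gene in every library (points, TMM-scaled CPM, linear axis from 0) in KO-labelled and WT cells under each condition; horizontal lines are group means and error bars are SD (n = 4 each). WT unstimulated cells have the lowest mean for Pdcd1, Lag3, Tigit, Btla and Cd200, whereas Tox and Havcr2 are highest in the unstimulated groups.

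The genes lie on 6 chromosomes of GRCm38, and which exons their deposited counts cover was not stated. Tigit (chr16:43648867-43664146, minus strand), Btla (chr16:45224315-45257670, plus strand) and Cd200 (chr16:45382135-45409053, minus strand) are on the same chromosome, Btla and Cd200 as near neighbours. Pdcd1 (chr1:94038305-94052553), Lag3 (chr6:124904361-124911705), Cd160 (chr3:96798763-96829351) and Tox (chr4:6686353-6991557) are on the minus strand and Havcr2 (chr11:46454935-46481255) on the plus strand. Exons of Cd160 share bases with Pdzk1 and exons of Tox share bases with Gm11802, each on the other strand. The library kit was directional, but the strand setting of the counting is not stated, so reads of those pairs may not have been told apart.

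Promoter windows of 250 bases before the RefSeq transcript start (GRCm38.p6) were available for 6 of the genes. They are shown for Pdcd1 and Tigit, which stood several-fold higher in KO-labelled unstimulated cells, and for Btla and Cd200, which had the most similar profiles over the 8 groups. The windows are chr1:94052554-94052803 (minus strand) for Pdcd1, chr16:43664185-43664434 (minus strand) for Tigit, chr16:45224087-45224336 (plus strand) for Btla and chr16:45409054-45409303 (minus strand) for Cd200. The windows of Btla and Tigit lie inside the RefSeq span of the gene, chr16:45223705-45252895 for Btla and chr16:43626137-43665125 for Tigit. Their transcript starts are therefore not the outermost ones. Each window reads 5′ to 3′ on the strand of its gene, and capitals mark the letters TTTCC, the complement of the NFAT core GGAAA.
Pdcd1: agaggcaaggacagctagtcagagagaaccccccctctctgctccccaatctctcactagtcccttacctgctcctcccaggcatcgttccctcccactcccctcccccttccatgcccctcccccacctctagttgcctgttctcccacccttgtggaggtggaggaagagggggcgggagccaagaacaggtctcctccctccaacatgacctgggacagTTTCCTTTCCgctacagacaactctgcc
Tigit: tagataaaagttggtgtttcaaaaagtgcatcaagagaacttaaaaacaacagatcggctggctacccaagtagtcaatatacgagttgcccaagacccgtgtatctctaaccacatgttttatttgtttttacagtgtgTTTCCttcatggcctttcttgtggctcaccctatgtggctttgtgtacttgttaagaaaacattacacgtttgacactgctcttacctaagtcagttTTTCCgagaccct
Btla: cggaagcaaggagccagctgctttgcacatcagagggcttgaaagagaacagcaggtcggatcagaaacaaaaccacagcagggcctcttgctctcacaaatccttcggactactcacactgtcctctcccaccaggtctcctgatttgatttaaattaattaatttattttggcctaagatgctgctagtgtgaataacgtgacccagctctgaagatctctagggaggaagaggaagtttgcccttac
Cd200: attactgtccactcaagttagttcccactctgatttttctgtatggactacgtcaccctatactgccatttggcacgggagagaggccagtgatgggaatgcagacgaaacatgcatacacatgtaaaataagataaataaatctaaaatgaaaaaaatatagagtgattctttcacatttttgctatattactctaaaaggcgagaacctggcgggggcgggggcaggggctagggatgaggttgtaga

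NFAT proteins carry the calcium signal of the antigen receptor to the nucleus. The NFAT core GGAAA, searched on both strands, occurred in 55.6% of 32851 such windows, so its presence is common. The Pdcd1 window held 2 matches, starting 28 and 23 bases before the start, and the Tigit window held 2, starting 110 and 13 bases before it. The windows of Btla and Cd200 held none. The Nr4a monomer letters AAAGGTCA (1.34% of windows) and the oestrogen-related receptor letters TCAAGGTCA (0.387%) occurred in none of the windows of the 6 genes on either strand; these 2 motifs share AAGGTCA. The AP-1 letters TGANTCA (6.75%) occurred once, in the window of Havcr2. These are matches of letters, and absence says only that the letters are not in the window.

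In unstimulated cells, 5 of the 8 genes stood higher in KO-labelled cells than in WT cells (Lag3, Tigit, Pdcd1, Cd200 and Tox), 1 was lower (Cd160), and Btla and Havcr2 were not called. Over all tested genes, 36.1% were called in that comparison, 12.5% higher and 23.6% lower. That balance depends on the scaling, since 71.7% of the calls were higher with library totals, against 34.6% with TMM. In stimulated cells Tigit, Lag3 and Cd200 were higher and Cd160 and Havcr2 lower in KO-labelled libraries, 5 of 8 against 25.2% of all tested genes (7.31% higher, 17.9% lower). With the unstimulated share subtracted from the WT stimulated libraries, 1 of the 8 (Cd160, lower) and 736 of all tested genes were called, and the balance of directions turned, with 505 higher and 231 lower in KO-labelled cells, against 902 higher and 2209 lower without the subtraction. With XCT790, 3 of 8 were called (Tigit and Tox higher, Cd160 lower), against 9.51% of all tested genes (7.4% higher, 2.11% lower). With CompA, 3 of 8 were again called, with Tigit and Tox higher and Cd160 lower, against 7.7% of all tested genes (5.82% higher, 1.88% lower). The median log2 difference of the 8 genes was 0.83 in unstimulated, 0.22 in stimulated, 0.18 in XCT790 and 0.12 in CompA cells, where the median over all tested genes was -0.08, 0.00, 0.03 and 0.02. Without the subtraction, Tigit and Cd160 were thus called in all 4 conditions, in opposite directions. With it, Tigit was not called in stimulated cells (edgeR adjusted p = 0.054). How many of all tested genes were called in all 4 conditions was not counted.

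**Figure D2:**
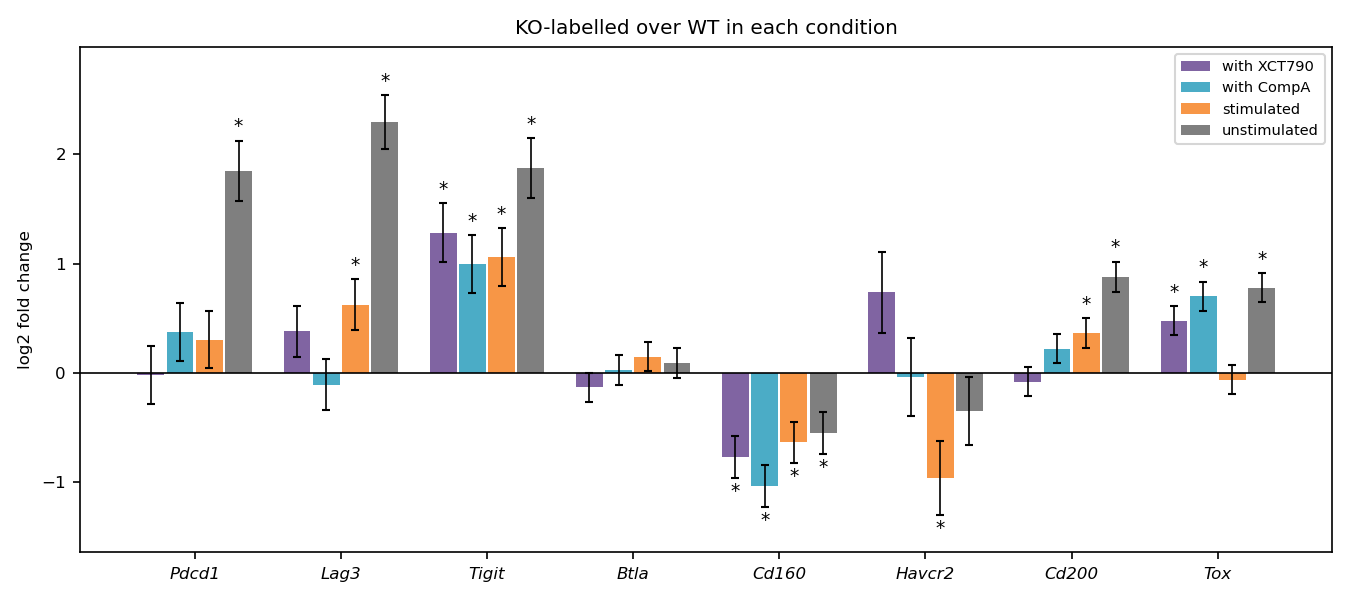
Log2 fold change (y axis; edgeR, bars, with SE as error bars) of KO-labelled over WT libraries for each gene in cells with XCT790, with CompA, stimulated and unstimulated (4 libraries a group); asterisks mark an adjusted p under 0.05. The unstimulated bars of Lag3, Tigit and Pdcd1 reach 2.30, 1.88 and 1.85, and Tigit is positive and Cd160 negative in all 4 conditions.

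Stimulation changed most of the genes, as it did most of the transcriptome. Among KO-labelled cells Btla, Cd200, Cd160 and Lag3 were higher and Tox and Havcr2 lower in stimulated than in unstimulated libraries, 6 of 8 where 81.7% of all tested genes were called (39.3% higher, 42.4% lower). Among WT cells Pdcd1 was higher as well, 7 of 8 where 73.3% were called (34.5% higher, 38.8% lower). With the unstimulated share subtracted, all 8 were called, Tigit being the added one, higher, and so were 9933 of all tested genes. The subtraction by itself widens the difference between WT stimulated and unstimulated cells, so the direction of that change was set in advance. The difference between the genotypes in their response was tested as an interaction. It was called for 4 of 8 genes, Pdcd1, Lag3, Cd200 and Tox, each with a negative sign, meaning a lower stimulated-to-unstimulated ratio in KO-labelled cells; 33.7% of all tested genes were called (17.2% positive, 16.5% negative). With the share subtracted, 3 of the 8 (Pdcd1, Lag3 and Cd200) and 936 of all tested genes were called, 627 positive and 309 negative.

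The 2 inhibitors were used at the same dose and time, and each was compared with the same stimulated libraries of its genotype, which the comparisons share. With XCT790, Cd160 alone was called in KO-labelled cells, lower, against 11.3% of all tested genes (6.2% higher, 5.07% lower). In WT cells Cd160 and Havcr2 were lower and Cd200 higher with XCT790, 3 of 8 against 28.6% (8.4% higher, 20.2% lower). With the unstimulated share subtracted, 1 of the 8 (Cd160, lower) and 849 of all tested genes were called, 477 higher and 372 lower, where 1036 higher and 2491 lower were called without the subtraction. With CompA, Lag3 was higher and Btla, Cd200 and Cd160 lower in KO-labelled cells, 4 of 8 against 19.3% (10.2% higher, 9.11% lower). In WT cells Lag3 was higher and Btla, Cd200, Cd160, Tox and Havcr2 lower with CompA, 6 of 8 against 32.8% (11.6% higher, 21.3% lower). With the share subtracted, 6 of the 8 were called, with Pdcd1, lower, in place of Havcr2, and 2674 of all tested genes, 1352 higher and 1322 lower. Comparing XCT790 with CompA directly, 1 pair of compounds in each genotype, Btla and Cd200 were higher and Lag3 lower with XCT790 in both genotypes, and Tox was higher in WT cells. That is 3 of 8 in KO-labelled cells, against 3.24% of all tested genes (1.97% higher, 1.27% lower), and 4 of 8 in WT cells, against 9.41% (4.33% higher, 5.08% lower). With the run of libraries as a block, the genes called in KO-labelled cells numbered 2772 with XCT790, 3816 with CompA and 988 between the compounds, against 1390, 2378 and 400 without it, and the 8 genes kept their calls. An interaction of genotype with XCT790 was called for Havcr2 and Tox, both positive (2 of 8, against 24.7%, with 17.5% positive and 7.23% negative), and one with CompA for Tox, positive (1 of 8, against 21.6%, with 15.6% positive and 5.99% negative). With the share subtracted, edgeR and limma-voom each called 0 genes for either inhibitor interaction (340 genes for XCT790 and 412 for CompA at an unadjusted p under 0.05 by edgeR).

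**Figure D3:**
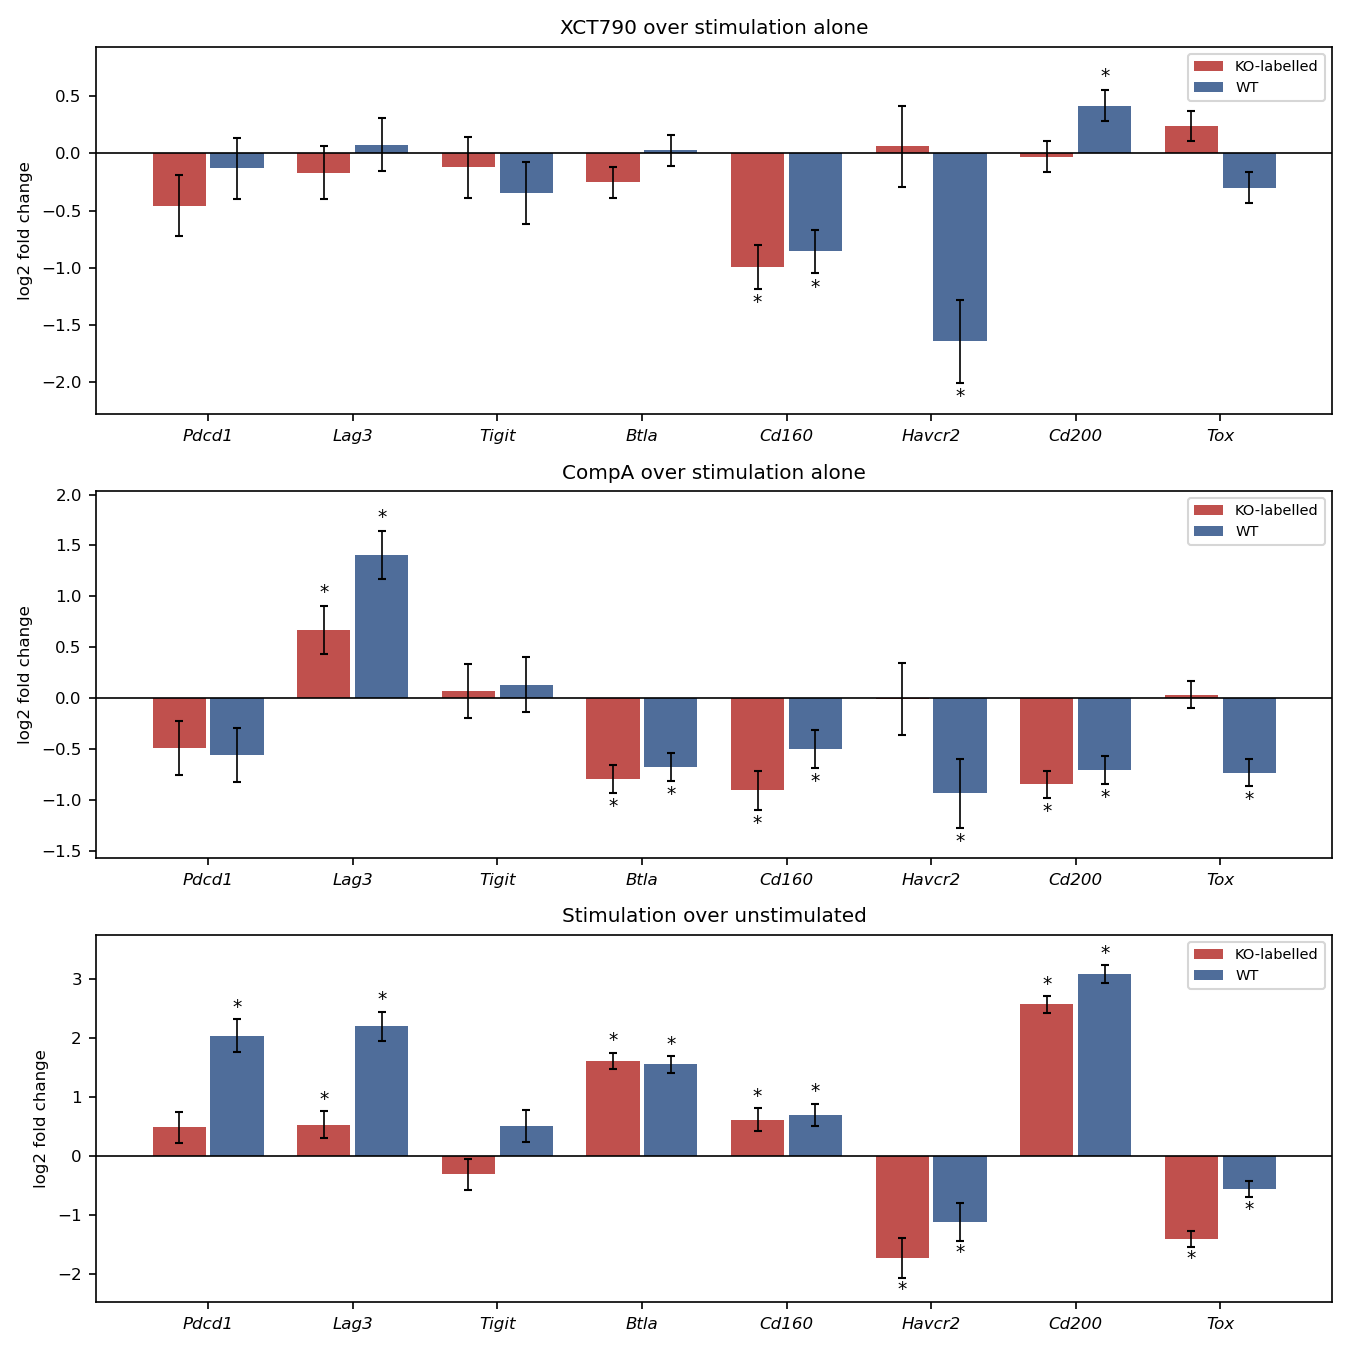
Log2 fold change (y axis; edgeR, bars, with SE as error bars) of XCT790 over stimulation alone (top), CompA over stimulation alone (middle) and stimulated over unstimulated cells (bottom), in KO-labelled and WT libraries (4 a group); asterisks mark an adjusted p under 0.05. Lag3 is positive and Btla and Cd200 negative with CompA in both genotypes, whereas Cd160 is negative with both compounds.

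Pdcd1 encodes PD-1, the receptor for the ligands encoded by Cd274 and Pdcd1lg2. In unstimulated cells its level was 60.9, 92.3, 87.7 and 137 CPM in KO-labelled replicates 1 to 4, against 24.4, 20.2, 20.2 and 39.6 CPM in WT replicates. Every KO-labelled library was above every WT library. The means were 94.5 ± 31.6 CPM in KO-labelled and 26.1 ± 9.23 CPM in WT cells (SD, n = 4 each), a log2 difference of 1.85 ± 0.27 (SE; edgeR adjusted p = 2.5e-05). Stimulated cells had 132 ± 44.0 CPM in KO-labelled and 107 ± 27.3 CPM in WT libraries, and the libraries of the 2 groups overlapped (log2 difference 0.30, 95% interval -0.21 to 0.82). Stimulated cells had 1.40 times the unstimulated level among KO-labelled libraries (adjusted p = 0.091) and 4.09 times among WT libraries (2.3e-07; 5.20 times with the unstimulated share subtracted). The KO-labelled difference missed the threshold and passed it with the run of libraries as a block (0.0372). It also passed without KO-labelled stimulated replicate 3 (0.049) or unstimulated replicate 4 (0.0216). The interaction was -1.55 ± 0.38 (edgeR adjusted p = 0.0036). With XCT790 the means were 96.2 ± 30.3 CPM in KO-labelled and 97.7 ± 12.0 CPM in WT cells, and with CompA 94.0 ± 26.7 CPM in KO-labelled and 72.7 ± 13.5 CPM in WT cells. Neither compound was called against stimulation alone in either genotype, but the CompA difference in WT cells (log2 -0.56, adjusted p = 0.11) was called without WT stimulated replicate 2 (log2 -0.72, 0.0476), in a fit of only the 2 groups (0.0465) and with the unstimulated share subtracted (-0.92, 0.0119). Between XCT790 and CompA the 95% interval was -0.48 to 0.55 in KO-labelled cells and -0.09 to 0.94 in WT cells, where a fit of only the 2 groups called XCT790 higher (adjusted p = 0.0408). In the order of its 8 group means each group overlapped with the next, except that every WT library with CompA was above every WT unstimulated library.

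Lag3 encodes a receptor for MHC class II molecules. Unstimulated KO-labelled replicates 1 to 4 had 91.2, 149.7, 132 and 191 CPM, against 27.8, 26.7, 23.3 and 37.0 CPM in WT replicates. The KO-labelled libraries were all far above the WT ones. The means were 141 ± 41.5 CPM in KO-labelled and 28.7 ± 5.83 CPM in WT cells, a log2 difference of 2.30 ± 0.25 (edgeR adjusted p = 2.5e-07), the largest of the 8 genes in that condition. In stimulated cells KO-labelled replicates had 169, 151, 242 and 249 CPM, against 114, 148, 119 and 146 CPM in WT replicates, so that the groups were separate but close. That difference, 0.62 ± 0.23 with an adjusted p of 0.049, passed the threshold narrowly: leaving out any of the 4 WT stimulated libraries or KO-labelled stimulated replicate 3 or 4 gave adjusted p-values between 0.0529 and 0.148, library totals, limma-voom and upper-quartile scaling gave 0.0792, 0.0566 and 0.055, and with the unstimulated share subtracted from the WT libraries the difference was 0.17 (edgeR adjusted p = 0.786). Stimulation went with a 1.44-fold higher level in KO-labelled cells (adjusted p = 0.04) and a 4.58-fold higher one in WT cells (7.3e-09; 6.22-fold with the share subtracted). The KO-labelled call was lost without unstimulated replicate 1, 2 or 3 or stimulated replicate 3 or 4 (0.0602 to 0.186), and under library totals, upper-quartile scaling and DESeq2 (0.453, 0.309 and 0.0636). The interaction of genotype and stimulation was -1.67 ± 0.33 (edgeR adjusted p = 0.00071).

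CompA gave Lag3 its highest levels, 289, 212, 356 and 433 CPM in KO-labelled replicates and 327, 441, 299 and 325 CPM in WT replicates. Every WT library with CompA was above every WT library stimulated alone, whereas the KO-labelled groups overlapped. The log2 difference from stimulation alone was 0.67 ± 0.23 in KO-labelled cells (edgeR adjusted p = 0.042) and 1.40 ± 0.24 in WT cells (3e-05; 0.95 with the share subtracted, 0.00795). Leaving out KO-labelled stimulated replicate 1 or 2, or KO-labelled CompA replicate 3 or 4, ended the call in KO-labelled cells (0.0947 to 0.176), as did no filter on low counts (0.0576) and a fit of only the 2 groups (0.117). With XCT790 the Lag3 means were 180.2 ± 38.9 CPM in KO-labelled and 139 ± 44.4 CPM in WT libraries, neither called against stimulation alone. XCT790 cells were 1.79-fold lower than CompA cells among KO-labelled libraries (adjusted p = 0.042) and 2.51-fold lower among WT libraries (0.00041). The difference between the compounds in KO-labelled cells was lost without XCT790 replicate 1, 2 or 4 or CompA replicate 1, 3 or 4 (0.0565 to 0.198), and its adjusted p was 0.0505 without the 4 KO-labelled replicate 2 libraries and 0.139 in a fit of only the 2 groups.

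Tigit encodes a receptor for the nectin-like ligand PVR and is known for high expression in regulatory and follicular helper T cells. Its KO-labelled replicates 1 to 4 had 44.7, 61.7, 78.1 and 92.5 CPM in unstimulated cells, against 17.4, 15.5, 17.8 and 24.5 CPM in WT replicates. With XCT790 they had 32.4, 41.8, 50.1 and 79.5 CPM, against 19.96, 24.3, 17.4 and 22.2 CPM in WT replicates. No library overlapped between the genotypes in any of the 4 conditions, and in KO-labelled cells replicate 1 was the lowest and replicate 4 the highest in all 4. The stimulated means were 55.5 ± 20.4 CPM in KO-labelled and 26.7 ± 3.88 CPM in WT libraries, and the CompA means were 58.2 ± 21.2 CPM in KO-labelled and 29.2 ± 2.68 CPM in WT libraries. The log2 difference was 1.88 ± 0.27 unstimulated (edgeR adjusted p = 2.1e-05), 1.06 ± 0.27 stimulated (0.0037), 1.28 ± 0.27 with XCT790 (0.0025) and 0.99 ± 0.27 with CompA (0.019). The CompA call was lost without WT CompA replicate 3 (adjusted p = 0.0744) or KO-labelled CompA replicate 4 (0.115), and the stimulated one with the unstimulated share subtracted (log2 0.88, adjusted p = 0.054).

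The ratio of stimulated to unstimulated Tigit levels was 0.802 in KO-labelled cells (edgeR adjusted p = 0.26) and 1.42 in WT cells (0.096), neither called. With the run of libraries as a block, both passed the threshold in opposite directions, lower in KO-labelled stimulated cells (edgeR adjusted p = 0.0012) and higher in WT stimulated cells (0.000559), and so did their interaction (limma-voom with the run as a random block, log2 -0.84, 0.00978). The KO-labelled difference also passed with library totals (0.0372) and upper-quartile scaling (0.0489). The interaction also passed with library totals (0.0447) and without KO-labelled unstimulated replicate 1 (0.0494) or stimulated replicate 4 (0.0336), and the WT difference without WT unstimulated replicate 4 (0.0486), in a fit of only the 2 groups (0.0129) or with the unstimulated share subtracted (0.0296). Neither inhibitor was called against stimulation alone. Between the compounds in WT cells, XCT790 libraries had 21.0 ± 2.96 CPM and CompA libraries 29.2 ± 2.68 CPM, without overlap; the difference was not called (log2 -0.48, 95% interval -1.01 to 0.05, adjusted p = 0.32) but was called with the run as a block (0.0196) and in a fit of only the 2 groups (0.011). In KO-labelled cells the interval was -0.71 to 0.32.

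The summed markers of regulatory and of follicular helper T cells had higher means in KO-labelled than in WT unstimulated cells, the comparison in which Tigit and Pdcd1 were both higher. Foxp3, the lineage factor of regulatory T cells, averaged 126 ± 13.3 CPM in KO-labelled and 65.2 ± 11.1 CPM in WT unstimulated cells, and 56.9 ± 18.6 CPM in KO-labelled and 21.4 ± 4.31 CPM in WT cells with XCT790. The sum of 8 regulatory T cell markers ranged from 644 to 882 CPM in KO-labelled and from 350.2 to 446 CPM in WT unstimulated libraries, and its mean in the other 3 conditions lay between 1046 and 1128 CPM in KO-labelled and between 674 and 823 CPM in WT cells. The sum of 8 follicular helper markers ranged from 690.02 to 979 CPM in KO-labelled and from 419 to 595 CPM in WT unstimulated libraries, with Cxcr5 at 82.5 ± 22.2 CPM in KO-labelled and 34.5 ± 6.61 CPM in WT cells and Il21 at 37.5 ± 13.5 CPM in KO-labelled and 4.35 ± 3.09 CPM in WT cells. Beside the higher Pdcd1 of WT stimulated cells, Foxp3 averaged 32.7 ± 8.49 CPM in WT stimulated and 65.2 ± 11.1 CPM in WT unstimulated cells. The follicular helper sum was 424 CPM in WT stimulated and 501 CPM in WT unstimulated cells, whereas the regulatory sum was 674 CPM in WT stimulated and 402 CPM in WT unstimulated cells. Within the regulatory sum, Il2ra averaged 351 CPM in WT stimulated and 63.3 CPM in WT unstimulated cells. Tnfrsf18 averaged 188 CPM in WT stimulated and 94.9 CPM in WT unstimulated cells. Every other marker of the regulatory list had a lower mean in WT stimulated than in WT unstimulated cells. No defining marker of either list was at 0 in any group. The part of these cells in the receptor differences was not tested.

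Btla and Cd160 both encode receptors for the ligand HVEM, the product of Tnfrsf14, and their profiles over the 8 groups differed. Btla averaged 105.5 ± 22.2 CPM in KO-labelled and 99.2 ± 24.4 CPM in WT unstimulated cells, and 321 ± 41.3 CPM in KO-labelled and 289.9 ± 32.1 CPM in WT stimulated cells. Its genotype difference was called in none of the 4 conditions by edgeR, and its largest was 0.15 on the log2 scale in stimulated cells (95% interval -0.12 to 0.41). Stimulation went with a 3.04-fold higher level in KO-labelled cells (adjusted p = 1.7e-11) and a 2.92-fold higher one in WT cells (8.9e-11; 3.69-fold with the unstimulated share subtracted). CompA libraries had 161, 204, 192 and 181 CPM in KO-labelled and 186, 172, 184 and 184 CPM in WT replicates, against 264, 358, 344 and 319 CPM in KO-labelled and 319, 253, 273 and 315 CPM in WT stimulated replicates. The CompA and stimulated libraries did not overlap in either genotype. CompA cells were 1.74-fold lower in KO-labelled (edgeR adjusted p = 0.00019) and 1.60-fold lower in WT libraries (0.00028; 2.04-fold with the share subtracted). XCT790 libraries, at 269 ± 10.7 CPM in KO-labelled and 295 ± 11.9 CPM in WT cells, were not called against stimulation alone. They were 1.46-fold above CompA in KO-labelled cells (0.021; 0.0691 to 0.0782 without XCT790 replicate 3 or CompA replicate 1 or 4, and 0.0749 with library totals) and 1.63-fold above it in WT cells (0.001).

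Cd160 was low, and it was called lower in KO-labelled cells in every condition, the 1 gene of the 8 for which this held. Its KO-labelled stimulated replicates had 14.3, 15.1, 9.25 and 11.9 CPM, against 20.8, 17.4, 20.2 and 20.2 CPM in WT stimulated replicates, which were above every library of every other group. With CompA, KO-labelled replicates had 6.07, 8.14, 6.03 and 6.79 CPM, against 14.5, 10.4, 14.2 and 16.4 CPM in WT replicates, again without overlap. The log2 difference was -0.77 ± 0.19 with XCT790 (edgeR adjusted p = 0.01), -1.04 ± 0.19 with CompA (0.00071), -0.64 ± 0.19 stimulated (0.011; 0.0551 without KO-labelled stimulated replicate 3, and a difference of -0.85 with the unstimulated share subtracted) and -0.55 ± 0.19 unstimulated (0.025). In unstimulated cells the libraries overlapped, and the call was lost without WT replicate 1 (0.17) or 2 (0.0636) or KO-labelled replicate 1 (0.119) or 2 (0.0548), and with library totals or a fit of only the 2 groups (0.147 in both). Stimulated cells were 1.53-fold above unstimulated ones in KO-labelled libraries (adjusted p = 0.0042) and 1.62-fold above them in WT libraries (0.0016; 1.86-fold with the share subtracted). The adjusted p in KO-labelled cells was 0.0502 without the 4 KO-labelled replicate 2 libraries, 0.162 with library totals and 0.0814 with upper-quartile scaling. Cd160 was lower with both inhibitors than with stimulation alone. The log2 difference was -0.99 ± 0.19 in KO-labelled (0.0015) and -0.86 ± 0.19 in WT cells (0.00073) with XCT790, and -0.91 ± 0.19 in KO-labelled (0.0015) and -0.50 ± 0.19 in WT cells (0.037) with CompA. The CompA call in WT cells was lost without WT stimulated replicate 1, 3 or 4 or WT CompA replicate 1, 2 or 3 (0.057 to 0.135), and the difference was -0.72 with the share subtracted (0.00685). The 2 compounds were not called apart (log2 -0.08, 95% interval -0.47 to 0.30, in KO-labelled cells, and -0.35, -0.72 to 0.02, in WT cells). The sum of CD8 T, NK and gamma-delta T cell markers averaged 136 CPM in KO-labelled and 170 CPM in WT unstimulated cells. It averaged 69.0 CPM in KO-labelled and 75.5 CPM in WT stimulated cells. With XCT790 it was 55.3 CPM in KO-labelled and 32.8 CPM in WT cells, and with CompA 68.9 CPM in KO-labelled and 44.6 CPM in WT cells. The part of these cells in the Cd160 differences was not tested.

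Havcr2 encodes TIM-3, a receptor of differentiated T cells that macrophages and dendritic cells also express. It was the lowest of the 8 genes in every group, per kilobase and in CPM. Unstimulated libraries had 5.55, 5.00, 6.07 and 7.24 CPM in KO-labelled and 5.54, 11.0, 8.00 and 5.84 CPM in WT replicates, with overlap and no call. Stimulated libraries had 1.34, 1.30, 2.25 and 2.18 CPM in KO-labelled and 1.76, 5.99, 3.54 and 2.63 CPM in WT replicates, with WT replicate 2 far above the other WT libraries. The log2 difference was -0.96 ± 0.34 (edgeR adjusted p = 0.037). The adjusted p was 0.281 without WT stimulated replicate 2 (log2 -0.56), 0.0658 without WT stimulated replicate 3, 0.108 without KO-labelled stimulated replicate 1 and 0.0871 without KO-labelled stimulated replicate 2. It was 0.12 in a fit of only the 2 groups, 0.0761 with limma-voom, 0.057 with no filter and 0.0891 without the 4 KO-labelled replicate 2 libraries. With the unstimulated share subtracted the difference was -0.17 (0.888). WT XCT790 libraries had 0.878, 1.76, 1.25 and 0.590 CPM, a log2 difference from WT stimulated libraries of -1.64 ± 0.36 (0.00075), and WT CompA libraries had 1.40, 2.26, 1.69 and 1.92 CPM, a difference of -0.94 ± 0.34 (0.036). The XCT790 call became 0.267 and the CompA call 0.852 with the share subtracted, and the CompA call was also lost without WT stimulated replicate 2 or 3 or WT CompA replicate 1, 3 or 4 (0.0597 to 0.259), with limma-voom (0.0824) and in a fit of only the 2 groups (0.05). In KO-labelled cells the 3 stimulated groups lay between 1.74 and 1.85 CPM on average. Stimulated cells were 3.34-fold below unstimulated ones among KO-labelled libraries (adjusted p = 2.8e-05) and 2.18-fold below them among WT libraries (0.0027), or 3.82-fold with the share subtracted. The interaction with XCT790 was 1.70 ± 0.50 (edgeR adjusted p = 0.014; 0.0606 without WT stimulated replicate 2), and 0.89 without a call with the share subtracted. Between XCT790 and CompA the 95% interval was -0.62 to 0.76 in KO-labelled and -1.44 to 0.03 in WT cells; the WT difference was called with the run as a block (0.0458).

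The myeloid marker sum beside these values ranged from 746 to 1712 CPM in KO-labelled and from 1834 to 2838 CPM in WT unstimulated libraries, and from 13.5 to 17.7 CPM in KO-labelled and from 439 to 1103 CPM in WT stimulated libraries. The macrophage gene Csf1r averaged 0.79 CPM in KO-labelled and 177 CPM in WT stimulated cells, and Vsig4 was at 0 in KO-labelled stimulated cells and in the 4 inhibitor groups. WT stimulated replicate 2, the highest in Havcr2, also had the highest unstimulated share. The part of myeloid cells in the Havcr2 differences was not tested.

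**Figure D4:**
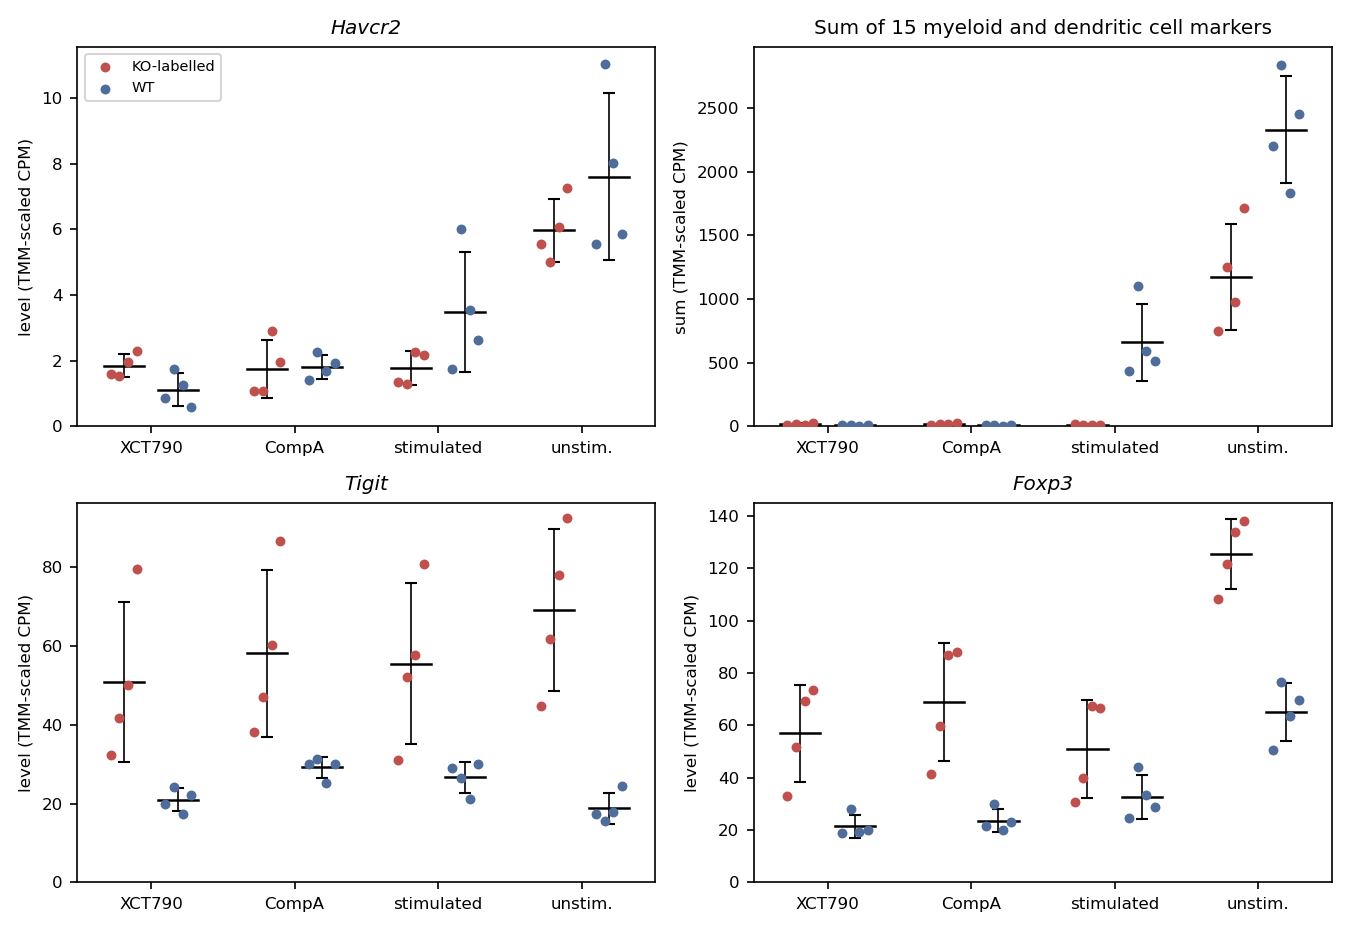
Havcr2 beside the summed level of 15 myeloid and dendritic cell markers (top) and Tigit beside Foxp3 (bottom) in each library (points, TMM-scaled CPM, linear axes from 0), with group means and SD (n = 4 each), for KO-labelled and WT cells. The marker sum lies between 439 and 1103 in WT stimulated libraries and between 13.5 and 17.7 in KO-labelled ones, and the means of Tigit and Foxp3 are higher in KO-labelled cells in each condition.

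Cd200 encodes a surface glycoprotein that engages an inhibitory receptor, encoded by Cd200r1, on myeloid and some lymphoid cells. Its ratio of stimulated to unstimulated levels was the highest of the 8 genes in both genotypes. Stimulated replicates had 278.5, 356, 286 and 319 CPM in KO-labelled cells and 278, 178, 249 and 258 CPM in WT cells, against 42.5, 53.1, 47.8 and 66.6 CPM in KO-labelled and 26.2, 35.8, 26.2 and 25.9 CPM in WT unstimulated replicates. The fold over unstimulated cells was 5.90 in KO-labelled (edgeR adjusted p = 1.2e-15) and 8.44 in WT libraries (9.7e-17; 11.3 with the unstimulated share subtracted). In unstimulated cells every KO-labelled library was above every WT library, with a log2 difference of 0.88 ± 0.14 (5.4e-05). The stimulated difference, 0.36 ± 0.13 (0.047), was lost without WT stimulated replicate 2 or 3 or KO-labelled stimulated replicate 2 or 4 (0.0696 to 0.2), without the 4 KO-labelled replicate 2 libraries (0.133), with library totals (0.099) and in a fit of only the 2 groups (0.14), and it changed sign to -0.07 with the unstimulated share subtracted. The interaction, -0.52 ± 0.19 (0.04), was lost when any of 10 libraries was left out (0.0577 to 0.118): WT unstimulated replicates 1, 3 and 4, WT stimulated replicates 1, 3 and 4, KO-labelled unstimulated replicates 2 and 4 and KO-labelled stimulated replicates 1 and 3. It was also lost with limma-voom (0.0543), with no filter (0.076) and in a fit of only the 4 groups (0.0964). With the share subtracted it was -0.96 (edgeR adjusted p = 0.00185), a change in the direction that the subtraction sets.

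With CompA, Cd200 had 149, 194, 163 and 183 CPM in KO-labelled replicates and 147, 125, 166 and 153 CPM in WT replicates, below every stimulated library of the same genotype. CompA cells were 1.80-fold lower than stimulated cells in KO-labelled (edgeR adjusted p = 8.6e-05) and 1.63-fold lower in WT libraries (0.00016; 2.21-fold with the share subtracted). XCT790 libraries averaged 303 ± 6.51 CPM in KO-labelled and 321 ± 32.7 CPM in WT cells. They were 1.76-fold above CompA in KO-labelled cells (0.00062) and 2.17-fold above it in WT cells (3.7e-06), without overlap in either genotype. Against stimulation alone, XCT790 was called in WT cells (log2 0.41 ± 0.13, adjusted p = 0.02) but not in KO-labelled cells (-0.03, 0.92). That WT call was lost without WT XCT790 replicate 1, 3 or 4 or WT stimulated replicate 2 (0.0504 to 0.0952), with library totals (0.0967) and in a fit of only the 2 groups (0.0534), and changed sign to -0.02 with the share subtracted. The interaction with XCT790 was -0.45 (adjusted p = 0.084; 0.0451 without WT stimulated replicate 1, 0.0334 with DESeq2 and 0.0477 in a fit of only the 4 groups), and -0.02 with the share subtracted.

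Tox was highest in unstimulated cells, with 112, 120.3, 131 and 161 CPM in KO-labelled replicates, against 61.0, 79.5, 81.7 and 82.7 CPM in WT replicates. Every KO-labelled library was above every WT library, with a log2 difference of 0.78 ± 0.13 (edgeR adjusted p = 0.00012). Stimulated cells were at 49.0 ± 7.32 CPM in KO-labelled and 51.3 ± 4.22 CPM in WT libraries, which overlapped. The log2 difference from unstimulated cells was -1.42 ± 0.13 in KO-labelled (1.2e-10) and -0.57 ± 0.13 in WT libraries (4e-04; -0.89 with the unstimulated share subtracted). The interaction was -0.85 ± 0.19 (0.0018; 0.0756 with the unstimulated share subtracted). Under the inhibitors the genotypes were separate again. KO-labelled replicates had 52.6, 54.6, 59.5 and 64.8 CPM with XCT790, against 41.0, 46.8, 39.0 and 39.7 CPM in WT replicates, and 36.9, 61.6, 48.8 and 53.2 CPM with CompA, against 28.3, 34.7, 30.4 and 30.0 CPM in WT replicates. No library overlapped in either condition. The log2 differences were 0.48 ± 0.13 with XCT790 (0.022) and 0.70 ± 0.14 with CompA (0.0011). The XCT790 difference was lost without WT XCT790 replicate 1, 3 or 4 or KO-labelled XCT790 replicate 3 or 4 (0.0615 to 0.0797).

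Against stimulation alone, the log2 difference of Tox with CompA was 0.03 in KO-labelled cells (95% interval -0.23 to 0.29) and -0.73 ± 0.14 in WT cells (edgeR adjusted p = 9.9e-05; -0.43 with the unstimulated share subtracted, 0.0274). The XCT790 difference in WT cells was not called but passed in a fit of only the 2 groups (log2 -0.32, 0.0254), and was 0.01 with the share subtracted. The interaction of genotype and CompA was 0.77 ± 0.19 (adjusted p = 0.0045), and that of genotype and XCT790 0.54 ± 0.19 (0.036). Leaving out any of 10 libraries ended the XCT790 interaction (0.0501 to 0.102): WT stimulated replicates 2, 3 and 4, WT XCT790 replicates 1, 3 and 4, KO-labelled stimulated replicates 1 and 3 and KO-labelled XCT790 replicates 3 and 4. So did no filter on low counts (0.0644). With the share subtracted the interactions of Tox were 0.46 with CompA and 0.22 with XCT790, neither called. In WT cells, XCT790 libraries were 1.35-fold above CompA libraries (adjusted p = 0.042), which was lost when any of 7 of the 8 libraries was left out (0.0612 to 0.121; CompA replicate 2 was the exception) and with limma-voom (0.0595), upper-quartile scaling (0.0613) and library totals (0.0935). In KO-labelled cells the 95% interval of that difference was -0.05 to 0.47.

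Other genes of the same biology were read from 4 lists, chosen with earlier results of these data known. Their counts describe the lists and are no test of them. Of 11 tested inhibitory receptors outside the 8, 2 were higher (Ctla4 and Cd5) and 2 lower (Cd300a and Lair1) in KO-labelled than in WT unstimulated cells, where 12.5% of all tested genes were higher and 23.6% lower. Ctla4, the receptor that competes with CD28 for its ligands, averaged 88.6 ± 18.4 CPM in KO-labelled and 43.7 ± 5.08 CPM in WT cells (log2 1.02 ± 0.18, edgeR adjusted p = 0.00021). It was also higher in KO-labelled cells when stimulated (log2 1.10, 3.4e-05), with XCT790 (1.07, 0.00028) and with CompA (1.37, 1.2e-05). Ctla4 is also 1 of the 8 regulatory T cell markers, of which Foxp3 averaged 56.9 ± 18.6 CPM in KO-labelled and 21.4 ± 4.31 CPM in WT cells with XCT790 and 69.0 ± 22.6 CPM in KO-labelled and 23.7 ± 4.26 CPM in WT cells with CompA; the part of regulatory T cells in the Ctla4 differences was not tested. In stimulated cells 2 of the 11 were higher in KO-labelled libraries and 6 lower, where 7.31% of all tested genes were higher and 17.9% lower. With the unstimulated share subtracted (505 of the 12332 tested genes higher, 231 lower), 4 of the 11 were higher and 1, Cd300a, lower. The 3 with the smallest p, Cd300a, Lair1 and Cd244, averaged 0.327, 1.93 and 0.135 CPM in KO-labelled cells and 21.7, 15.1 and 3.72 CPM in WT cells, beside myeloid marker sums of 14.9 CPM in KO-labelled and 661 CPM in WT cells, whose part was not tested. With XCT790, 4 of the 11 were higher in KO-labelled cells (Lilrb4, Ctla4, Klrg1 and Cd101) and none lower, against 7.4% and 2.11% of all tested genes, and with CompA 3 were higher (Ctla4, Klrg1 and Lilrb4) and none lower, against 5.82% and 1.88%.

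Of 11 tested ligands and binding partners, the PD-1 ligand genes Cd274 and Pdcd1lg2 were higher and Lgals3 was lower in KO-labelled unstimulated cells, against 12.5% higher and 23.6% lower of all tested genes. Cd274 averaged 56.5 ± 6.48 CPM in KO-labelled and 39.3 ± 3.23 CPM in WT cells (log2 0.52, edgeR adjusted p = 0.0066), and Pdcd1lg2 averaged 15.1 ± 4.00 CPM in KO-labelled and 8.22 ± 1.43 CPM in WT cells (0.88, 0.0082). Both were higher in stimulated than in unstimulated cells of either genotype, Cd274 by 1.01 in KO-labelled and 1.30 in WT cells and Pdcd1lg2 by 1.76 in KO-labelled and 2.47 in WT cells on the log2 scale. Of 8 phosphatases and adaptors, Ptpn11 (the phosphatase SHP-2, which PD-1 recruits), Dok2 and Bag6 were higher and Dok1 lower in KO-labelled unstimulated cells. Ptpn11 averaged 229 ± 17.0 CPM in KO-labelled and 115 ± 18.5 CPM in WT cells (log2 0.99, 9.6e-07). Dok2, an adaptor that restrains receptor signalling, averaged 199 ± 3.18 CPM in KO-labelled and 93.9 ± 16.8 CPM in WT cells (1.09, 2.9e-05) and was higher in KO-labelled cells in the other 3 conditions as well, by 0.55 stimulated (0.013; 1.14 with the unstimulated share subtracted), 1.25 with XCT790 (1e-05) and 1.02 with CompA (0.00015).

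Among 15 tested Tox relatives and transcription factors of exhausted T cells, 10 were higher and none lower in KO-labelled unstimulated cells. Of all tested genes, 12.5% were higher and 23.6% lower. The median log2 difference was 0.89 for the list and -0.08 for all tested genes. This list, too, was chosen with earlier results of these data known, so these counts are no test of it. Nfatc1, a calcium-dependent factor, averaged 328 ± 21.0 CPM in KO-labelled and 159.7 ± 27.1 CPM in WT cells (log2 1.04, edgeR adjusted p = 9.6e-07). Irf4 averaged 45.9 ± 7.86 CPM in KO-labelled and 25.8 ± 3.51 CPM in WT cells (0.83, 2.4e-05). The Nr4a1 relatives Nr4a2 and Nr4a3 averaged 4.42 ± 0.723 and 13.1 ± 0.791 CPM in KO-labelled and 1.02 ± 0.398 and 6.01 ± 1.42 CPM in WT cells (log2 2.08 and 1.11). The interaction of genotype and stimulation was negative for 7 of the 15 (Nfatc1, Nr4a2, Nr4a3 and Tcf7 with the smallest p) and positive for none. Of all tested genes, 16.5% were called negative and 17.2% positive. With the unstimulated share subtracted (309 of the 12332 tested genes negative, 627 positive), the interaction was negative for 5 and positive for none. That of Tcf7 was then not called (log2 0.11, edgeR adjusted p = 0.781). With XCT790 and with CompA, Maf, Prdm1, Ikzf2 and Tox2 were the 4 of 15 called, each higher in KO-labelled cells, where 7.4% (XCT790) and 5.82% (CompA) of all tested genes were higher. Ikzf2 is also 1 of the 8 regulatory T cell markers. Their sum averaged 1046 CPM in KO-labelled and 800.4 CPM in WT cells with XCT790. With CompA it averaged 1128 CPM in KO-labelled and 823 CPM in WT cells, beside the Foxp3 levels given for Ctla4. Il2ra, the largest part of that sum, averaged 506 CPM in KO-labelled and 462 CPM in WT cells with XCT790. With CompA Il2ra averaged 600 CPM in KO-labelled and 529 CPM in WT cells. The part of regulatory T cells in the differences of Maf, Prdm1, Ikzf2 and Tox2 was not tested. Maf averaged 16.2 ± 6.74 CPM in KO-labelled and 2.82 ± 0.355 CPM in WT cells with XCT790 (log2 2.52, 0.00015).

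Over the 8 group means, on the log2(CPM + 1) scale, Btla and Cd200 had the most similar profiles among the 8 genes (Pearson r = 0.97), and Cd200 and Havcr2 the most opposed (-0.90). Among 9067 other tested genes, or 9068 for Havcr2, the 3 most like Tigit were Casp4 (r = 0.95), Furin (0.95) and Il10 (0.94). Those most like Havcr2 were Leng1, the MHC class II gene H2-Aa and Il18bp (0.99 to 1.00). For Pdcd1 they were Helq, Nf2 and Zc3h7b (0.97 to 0.98), for Lag3 Lrrc8d, Pdzd8 and Gbp4 (0.97 to 0.98), and for Cd160 Socs6, Gpr183 and Eno3 (0.87 to 0.93). Btla was most like Usp36, Rbm19 and Letm1, Cd200 most like Usp40, Zfp282 and Ttll4, and Tox most like Arhgap31, Polm and Prkcz (0.99 to 1.00). These are descriptions over 8 points that share 4 conditions and 2 genotypes.

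Within a genotype, libraries with the same replicate number kept a rank in some genes. Tigit and Tox were lowest in KO-labelled replicate 1 in all 4 conditions. Havcr2 was lowest in KO-labelled replicate 2 and highest in WT replicate 2 in all 4, and Pdcd1 was lowest in WT replicate 2 in all 4. Some of these ranks were near ties. Unstimulated WT replicates 2 and 3 both had 20.2 CPM of Pdcd1. With CompA, KO-labelled replicates 1 and 2 had 1.07 and 1.06 CPM of Havcr2. KO-labelled replicate 2 also stood apart in B cell markers, whose sum reached 734 CPM in the unstimulated library, where the group mean was 279 CPM. Without the 4 KO-labelled replicate 2 libraries the unstimulated genotype differences of Lag3, Tigit, Pdcd1, Cd200 and Tox were still called.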

How the data were processed

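Poly(A) RNA of 32 libraries, 4 in each of 8 groups, was sequenced after a directional NEBNext Ultra II preparation, per the labels' protocols. The authors deposited raw read counts per gene, 1 table a library. Per the submitters' processing notes, the tools included Trimmomatic 0.36, HISAT2 2.1.0, SAMtools and HTSeq 0.9.1, with the mm10 build; the annotation and strand setting were not stated. The 5 summary lines of each table were left out (no feature 5.31 to 13.3%, ambiguous 1.10 to 2.32% of the reads listed as assigned, ambiguous or without feature).

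From these counts, edgeR 4.0.16 (R 4.3.3) tested 12332 of 24302 genes after filterByExpr, with TMM factors and 1 quasi-likelihood fit over all 32 libraries. The 15 contrasts were adjusted by the Benjamini-Hochberg method over all genes tested. The SE is the log2 fold change divided by the square root of F, and 95% intervals are 1.96 SE either side. The members and the gene and marker lists were chosen with earlier results of these data known. Other genes are named by list membership or by their likeness, Pearson's r over group means of at least 10 CPM in some group. The test was tried on simulated counts. All replicate pairs differed by more than sampling noise (lowest chi-square 3.01 per degree of freedom).

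Libraries are numbered in runs of 4, 1 for each condition of a genotype. WT libraries are numbered 1 to 16 and KO-labelled ones 25 to 40. An effect that follows library number therefore cannot be told apart from genotype. Same-run deviations correlated at 0.131 to 0.448 (KO-labelled) and 0.461 to 0.706 (WT) between stimulated and unstimulated cells. Between the compounds they correlated at 0.7 to 0.873 (KO-labelled) and 0.349 to 0.766 (WT). Between each compound and stimulation in KO-labelled cells they correlated at 0.613 to 0.878. The runs of those contrasts were taken to be paired by the data, and the runs of WT inhibitor contrasts against stimulation were not (-0.114 to 0.53). The main fit held no block for any contrast, so its calls, SE and intervals are unpaired. The run entered only as an alternative. Alternatives used DESeq2 1.42.0, limma-voom 3.58.1, other scalings, no filter, fits of only the groups compared, the run as a block, subtraction of the unstimulated share and each library left out.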

Additional observations from a re-analysis of the deposited data

Results flagged for a closer look

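Of 64 groups of 4 libraries (8 genes in 8 groups), 7 held 1 library whose gap to the nearest other took most of the group's range by Dixon's criterion, where chance flags about 1 in 20 groups. Pdcd1 stood at 141 CPM in KO-labelled XCT790 replicate 2, where the others lay between 79.0 and 85.1 CPM. Pdcd1 was also low in WT replicate 2 with XCT790 (79.8 CPM) and with CompA (52.6 CPM). Btla was 172 CPM in WT CompA replicate 2. Cd200 was 273 CPM in WT XCT790 replicate 2 and 35.8 CPM, the highest of its group, in WT unstimulated replicate 2. Tox was 61.0 CPM in WT unstimulated replicate 1, the lowest of its group. Of these 7 values, 5 were in WT replicate 2 libraries, the Pdcd1 and Cd200 values with XCT790 coming from 1 library and the Pdcd1 and Btla values with CompA from another.

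The response to a treatment differed between the genotypes by edgeR's interaction test in 7 cases. With stimulation the interaction, on the log2 scale, was -1.55 for Pdcd1, -1.67 for Lag3, -0.52 for Cd200 and -0.85 for Tox. With XCT790 it was 1.70 for Havcr2 and 0.54 for Tox, and with CompA 0.77 for Tox. The WT stimulated libraries enter every one of these 7, and they hold the unstimulated share described for them. With it subtracted, the interactions of Pdcd1, Lag3 and Cd200 with stimulation were called. That of Tox with stimulation and the 3 with an inhibitor were not. For genes that stimulation raises, the subtraction by itself makes the interaction with stimulation more negative.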

How the results depend on the processing

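With each library left out in turn, 997 of the single-gene values kept their direction and side of the threshold, 87 lost the call, 7 gained one and 61 changed sign; under the other settings the numbers were 874, 44, 23 and 43. Apart from Cd200 with the unstimulated share subtracted, the sign changes listed here concern differences that were not called with the settings of the report. The cause of the changes was not tested, except that fits of only the groups compared have fewer libraries to estimate spread. Depth limits Havcr2 most, at as few as 11 counts.

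The number of genes called was 2314 (KO-labelled over WT unstimulated), 1722 (KO-labelled over WT stimulated), 213 (XCT790 in KO-labelled), 749 (CompA in KO-labelled), 69 and 2784 (XCT790 over CompA in KO-labelled and in WT) and 2618 (genotype by stimulation) when only the groups compared were fitted. With DESeq2 it was 622 for XCT790 over CompA in KO-labelled cells. With the replicate block it was 2772, 3816 and 988 (XCT790, CompA and XCT790 over CompA in KO-labelled) and 4243 for genotype by CompA, where 2 of the 8 genes were called. With the unstimulated share subtracted it was 736 (KO-labelled over WT stimulated, 1 of the 8 genes), 849 (XCT790 in WT, 1 of the 8), 2674 (CompA in WT), 936 (genotype by stimulation) and 0 for genotype by XCT790 and by CompA (0 of the 8; edgeR and limma-voom alike, with 340 and 412 genes at an unadjusted p under 0.05 by edgeR). Of the 8 genes, 3 were called for KO-labelled over WT stimulated cells with library totals, with limma-voom, with only those groups fitted and without the 4 KO-labelled replicate 2 libraries, and 1 for genotype by XCT790 with no filter on low counts.

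Leaving out each library gave 2028 (without WT unstimulated replicate 1) to 5243 genes for KO-labelled over WT unstimulated, 627 (without WT XCT790 replicate 3) to 1238 with XCT790 and 535 (without WT CompA replicate 3) to 1014 with CompA. It gave 779 to 1515 for XCT790 in KO-labelled, 182 to 380 (1 to 3 of the 8 genes) and 724 to 1123 for XCT790 over CompA in KO-labelled and WT, and 2677 to 4940 for genotype by stimulation. It gave 2 (without WT stimulated replicate 2) to 4 of the 8 genes for KO-labelled over WT stimulated and 0 (without the same library) to 3 for genotype by XCT790.

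The replicate block, with the run as the pair, changed these further calls in WT contrasts whose runs were not paired by the data: with CompA, Pdcd1 was called (adjusted p = 0.00531), and with XCT790, Tox (0.00474) and Tigit (0.0187) were called and Cd200 was not (0.083). It also gave a call to Lag3 for genotype by CompA (0.0217) and Cd200 for genotype by XCT790 (0.0256), and otherwise changed no call that the report does not name.

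Log2 values that changed sign were, with library totals, 0.043 for Pdcd1 in KO-labelled over WT with XCT790, 0.067 for Havcr2 in KO-labelled over WT with CompA, -0.021 for Lag3 and -0.061 for Btla in XCT790 in WT, 0.053 for Havcr2 in CompA in KO-labelled, -0.0011 for Pdcd1 in XCT790 over CompA in KO-labelled, -0.17 for Btla in genotype by stimulation and 0.056 for Tigit in genotype by CompA. With upper-quartile factors they were 0.010 for Pdcd1 (KO-labelled over WT with XCT790), 0.0022 for Havcr2 (KO-labelled over WT with CompA), -0.0015 for Btla (XCT790 in WT) and 0.015 for Havcr2 (CompA in KO-labelled). DESeq2 gave -0.0025 for Tox with CompA in KO-labelled cells, no filter gave 0.0053 for Havcr2 in KO-labelled over WT with CompA, and the block gave -0.018 for Lag3 and -0.036 for Btla with XCT790 in WT cells.

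With the unstimulated share subtracted they were -0.051 for Pdcd1, -0.20 for Btla, -0.070 for Cd200 and 0.25 for Tox in KO-labelled over WT stimulated cells, -0.37 for Lag3, -0.32 for Btla, -0.016 for Cd200 and 0.013 for Tox with XCT790 in WT cells, and -0.049 for Tigit with CompA in WT cells. The interactions became 0.17 for Havcr2 and -0.30 for Btla by stimulation, 0.015 for Pdcd1, 0.20 for Lag3, 0.065 for Cd160 and 0.052 for Btla by XCT790, and 0.12 for Tigit, 0.23 for Btla and 0.30 for Cd200 by CompA. Without the 4 KO-labelled replicate 2 libraries they were -0.059 for Btla unstimulated, 0.057 for Lag3, 0.15 for Havcr2 and -0.017 for Btla with CompA (KO-labelled over WT), 0.053 for Cd200 with XCT790 and 0.057 for Havcr2 and -0.016 for Tox with CompA in KO-labelled cells, and -0.0052 for Pdcd1 and -0.039 for Havcr2 in XCT790 over CompA.

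Single libraries left out moved across 0 Btla unstimulated (-0.059 to 0.18), Tox stimulated (-0.12 to 0.035), Pdcd1 with XCT790 (-0.27 to 0.060) and, with CompA, Lag3 (-0.28 to 0.046), Havcr2 (-0.40 to 0.14) and Btla (-0.028 to 0.084) in KO-labelled over WT. In KO-labelled cells they moved Tigit (-0.42 to 0.12), Havcr2 (-0.061 to 0.19) and Cd200 (-0.079 to 0.043) with XCT790, Tigit (-0.19 to 0.31), Havcr2 (-0.38 to 0.16) and Tox (-0.082 to 0.15) with CompA, and Pdcd1 (-0.21 to 0.25), Tigit (-0.49 to 0.068), Havcr2 (-0.11 to 0.43) and Cd160 (-0.15 to 0.017) between the compounds. In WT cells they moved Lag3 (-0.18 to 0.19) and Btla (-0.016 to 0.087) with XCT790. Among interactions they moved Cd160 (-0.24 to 0.049) and Btla (-0.024 to 0.22) by stimulation, Lag3 (-0.36 to 0.0039) and Tigit (-0.076 to 0.46) by XCT790, and Pdcd1 (-0.15 to 0.31) and Tigit (-0.32 to 0.17) by CompA.

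Subtracting the unstimulated share moved the share of calls that were higher to 68.6%, against 29.0%, for KO-labelled over WT stimulated cells, to 56.2%, against 29.4%, for XCT790 in WT, to 50.6%, against 35.2%, for CompA in WT and to 67.0%, against 51.1%, for genotype by stimulation. Library totals moved it to 71.7% for KO-labelled over WT unstimulated cells, against 34.6% with TMM, with a shift of 0.21 in the median log2 difference of all genes; the directions of the 6 called genes held. They moved it to 22.0%, against 51.1%, for genotype by stimulation, to 16.9%, against 29.4%, for XCT790 in WT, to 37.5%, against 48.1%, for stimulation in KO-labelled, to 87.4%, against 75.6%, for KO-labelled over WT with CompA, to 82.7%, against 72.2%, for genotype by CompA and to 44.2%, against 60.8%, for XCT790 over CompA in KO-labelled. Upper-quartile factors moved it to 36.4%, against 47.1%, for stimulation in WT. The median of all genes shifted by -0.33 (library totals) and -0.26 (upper-quartile factors) for stimulation in KO-labelled and by -0.22 (upper-quartile factors) for stimulation in WT cells, and with library totals by -0.24 for genotype by stimulation, 0.10 by XCT790 and 0.12 by CompA.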
